A study of Homo sapiens with 19 samples.

Results

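The 29 genes described here encode enzymes of cholesterol synthesis, the regulators that sense sterols, and proteins that move sterols within cells or export them. They were found by matching the Ensembl IDs of the count tables to a list of symbols, and all 29 were present in each of 3 gene count tables. The tables held 60612 IDs for HCT116, 63086 for WiDr and 82890 for the WiDr long-read libraries, 84354 distinct IDs in all. HCT116 and WiDr are established human colorectal carcinoma lines, and the labels name no engineered allele in either. Each group was exposed for 96 h. In HCT116, 3 libraries came from cells given GSK025 at 10 µM, 3 from cells given GSK715 at 5 µM and 3 from cells given the vehicle DMSO. In WiDr, short reads were made from 3 libraries with GSK715 at 5 µM and 3 with DMSO, and Oxford Nanopore (ONT) full-length cDNA from 2 libraries with GSK715 at 5 µM and 2 with DMSO. GSK025 (GSK3235025) inhibits PRMT5, the main enzyme of symmetric arginine dimethylation, and GSK715 (GSK3368715) is labelled a PRMT1 inhibitor, PRMT1 being the main enzyme of asymmetric arginine dimethylation. WiDr with GSK025 was not analysed here, and each inhibitor was used at 1 dose.

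Cells make cholesterol from acetyl-CoA through mevalonate, isoprenoid diphosphates, squalene and lanosterol, and the branch at farnesyl diphosphate also feeds protein prenylation, dolichol and ubiquinone. When membranes of the endoplasmic reticulum are low in sterol, SCAP escorts the SREBP precursors to the Golgi, where they are cut, and the released factors activate most genes of the pathway. INSIG1 and INSIG2 hold SCAP back when sterols are abundant, and INSIG1 is itself an SREBP target. Oxysterols act in the opposite direction through the LXR receptors, which activate the exporters ABCA1 and ABCG1, the ubiquitin ligase MYLIP and SREBF1. Liver and intestine are main sites of the pathway in the body, and most carcinoma lines keep it active.

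Promoter windows of 5 members are shown because the results turn on these genes. INSIG1 had the largest increase and CYP51A1 the largest decrease with GSK715 in WiDr short reads. STARD4 and MVD were among the 3 largest decreases with GSK025. SREBF2 was called higher in all 3 short-read comparisons with DMSO, though its call with GSK025 was lost in several alternative fits. Each window runs from 250 bases before to 50 bases after the RefSeq gene start on GRCh38.p14 and is written 5′ to 3′ on the gene's strand. Capitals mark the CCAAT box (CCAAT, or ATTGG where it lies on the other strand), the E-box CACGTG and a sterol regulatory element written as TCACNCCAC, all searched on both strands, and no marked motif overlaps another.
INSIG1 (chr7:155297628-155297927, plus strand): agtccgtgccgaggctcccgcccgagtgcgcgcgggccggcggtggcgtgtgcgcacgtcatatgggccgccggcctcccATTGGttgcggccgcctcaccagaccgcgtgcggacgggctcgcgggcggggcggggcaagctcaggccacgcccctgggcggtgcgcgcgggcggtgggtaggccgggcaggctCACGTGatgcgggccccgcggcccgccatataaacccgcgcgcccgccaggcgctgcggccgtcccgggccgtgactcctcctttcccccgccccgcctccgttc
STARD4 (chr5:111512486-111512785, minus strand): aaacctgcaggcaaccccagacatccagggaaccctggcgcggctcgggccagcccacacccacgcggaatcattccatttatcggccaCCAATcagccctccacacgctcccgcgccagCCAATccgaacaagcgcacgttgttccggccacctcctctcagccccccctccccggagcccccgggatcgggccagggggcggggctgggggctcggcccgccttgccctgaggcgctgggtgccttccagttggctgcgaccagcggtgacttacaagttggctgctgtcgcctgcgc
MVD (chr16:88663042-88663341, minus strand): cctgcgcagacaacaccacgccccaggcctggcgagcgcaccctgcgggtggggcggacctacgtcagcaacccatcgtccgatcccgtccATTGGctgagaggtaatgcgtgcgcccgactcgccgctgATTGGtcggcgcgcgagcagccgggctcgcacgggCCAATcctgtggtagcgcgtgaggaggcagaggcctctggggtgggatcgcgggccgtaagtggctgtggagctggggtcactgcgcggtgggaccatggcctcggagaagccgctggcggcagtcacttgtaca
SREBF2 (chr22:41832855-41833154, plus strand): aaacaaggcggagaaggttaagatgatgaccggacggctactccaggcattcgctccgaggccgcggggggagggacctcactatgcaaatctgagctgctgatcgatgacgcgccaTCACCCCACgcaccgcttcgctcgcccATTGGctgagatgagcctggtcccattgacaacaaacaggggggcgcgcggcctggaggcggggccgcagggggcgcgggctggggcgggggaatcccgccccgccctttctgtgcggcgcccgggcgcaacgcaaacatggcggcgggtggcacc
CYP51A1 (chr7:92134428-92134727, minus strand): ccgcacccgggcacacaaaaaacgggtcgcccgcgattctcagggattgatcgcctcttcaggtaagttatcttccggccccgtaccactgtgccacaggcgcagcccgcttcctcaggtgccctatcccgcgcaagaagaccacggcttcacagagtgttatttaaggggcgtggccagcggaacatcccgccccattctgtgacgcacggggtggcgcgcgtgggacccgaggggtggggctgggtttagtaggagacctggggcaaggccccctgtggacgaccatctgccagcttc

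The window of INSIG1 holds 1 CCAAT box and 1 E-box, that of STARD4 holds 2 CCAAT boxes, that of MVD 3, and that of SREBF2 holds 1 CCAAT box and 1 sterol regulatory element. None of the 3 motifs is in the CYP51A1 window. That window lies wholly within the GENCODE 29 gene (chr7:92112151-92134803), so the bases upstream of the GENCODE start were not searched. RefSeq windows were at hand for 25 of the 29 members, not for ACAT2, FDFT1, SQLE and ABCG1. CCAAT was in the windows of 18 of these 25 members (72.0%), against 39.7% of 27305 genes with a window. The E-box was in 5 (20.0%), namely LSS, SC5D, SCAP, INSIG1 and ABCA1, against 8.8% of genes, and TCACNCCAC in SREBF2 alone (4.0%), against 1.4% of genes. These are matches of letters and describe the windows only.

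The ONT libraries held 1.45 to 1.67 M counts each, against 59.6 to 82.4 M for the WiDr short reads, and the HCT116 libraries 64.6 to 66.9 M. Levels are given as CPM, counts divided by the TMM-scaled library size of each table, so levels are not compared between tables. Marker sums, here and below, cover only the markers that passed the count filter in the table concerned. Of 10 colorectal epithelial markers, the sum was 4450 to 7940 CPM in HCT116 and 16200 to 23300 CPM in WiDr short reads. In ONT it was 15800 to 21300 CPM. CDX1 and LGALS4 were left out in HCT116, and CDX1 and CDX2 in ONT. In HCT116 the epithelial marker CDX1 had at most 10 counts in a library and LGALS4 at most 9, and VIL1 averaged 0.117 CPM with DMSO. Of 10 markers of immune, endothelial and stromal cells, those that passed the filter summed to 19.3 to 61.6 CPM over all libraries. Not all of the 10 were absent. This sum left out PTPRC, CD3E and PECAM1 in HCT116. It covered only VWF, COL1A1, ACTA2 and CD14 in WiDr short reads, and only COL1A1 and CD14 in ONT. PTPRC had 0 counts in HCT116, and COL1A2 and COL3A1 had 0 counts in WiDr short reads. COL1A1 had 957 to 1588 counts per library in HCT116 and 703 to 1113 in WiDr short reads. ACTA2 had 295 to 2662 counts per library in HCT116, and CD14 had 448 to 1445 in WiDr short reads. The labels do not state whether the libraries of a group derive from different cultures. The p-values therefore cover only the spread among these libraries, which may be technical. In bulk RNA, fewer cells of a kind and less RNA per cell cannot be told apart.

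With GSK025 in HCT116, transcripts of sterol synthesis moved in both directions, with most of the larger changes downward: STARD4, SC5D, MVD and INSIG1 fell most, while SCAP, NSDHL and ABCG1 rose. Of the 29 members 9 were higher, 12 were lower and 8 did not pass an adjusted p of 0.05 (edgeR quasi-likelihood test with Benjamini-Hochberg adjustment over 19751 genes). Over all genes tested 22% were called higher and 22.1% lower. The members are well expressed, and among all genes averaging at least 5 CPM 66.9% were called in either direction, beside 72.4% of the members, so the share of members that changed is close to that of other expressed genes. The median log2 fold change of the members was -0.0045, against -0.018 over all genes tested. By role, 3 of the 8 mevalonate and prenyl diphosphate enzymes were higher and 5 lower, and 3 of the 11 enzymes from squalene to cholesterol were higher and 4 lower. The summed epithelial markers were 7550 to 7940 CPM with GSK025 and 4450 to 4550 CPM with DMSO. Those of the other cell types were 53.2 to 61.6 CPM with GSK025 and 26.7 to 31.8 CPM with DMSO. KRT8 (0.9), KRT18 (0.96), KRT19 (0.63), CDH1 (0.43) and CDX2 (0.48) were higher in log2. EPCAM was lower (-0.1), and VIL1 and KRT20 did not pass. Of the other cell types ACTA2 (1.97) and COL1A2 (4.33) were higher and the others tested did not pass. The part of these markers in the result was not tested.

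STARD4, a cytosolic carrier that moves sterol between membranes, had 20.2, 23.0 and 20.8 CPM with GSK025, against 49.7, 45.9 and 51.1 CPM with DMSO. The groups lie far apart, and the log2 fold change was -1.20 (SE 0.068, adjusted p = 3.3e-08). SC5D, the sterol desaturase late in the pathway, had 23.0, 22.3 and 20.8 CPM with GSK025 and 45.2, 48.3 and 41.8 CPM with DMSO. Each GSK025 library was below every DMSO library, with a log2 fold change of -1.04 (SE 0.085, adjusted p = 6.4e-07). MVD, which decarboxylates mevalonate diphosphate to isopentenyl diphosphate, had 30.8, 28.9 and 29.1 CPM with GSK025 and 58.8, 58.6 and 58.7 CPM with DMSO. It fell by 0.99 on the log2 scale (SE 0.051, adjusted p = 1.7e-08), and the spread within both groups was small. INSIG1, which retains SCAP in the endoplasmic reticulum, had 28.6, 30.3 and 29.2 CPM with GSK025 and 59.0, 53.9 and 52.4 CPM with DMSO. It was lower in every library, with a log2 fold change of -0.91 (SE 0.064, adjusted p = 1.7e-07).

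The remaining decreases with GSK025 ranged over the pathway. In the mevalonate part GGPS1, which makes geranylgeranyl diphosphate, changed by -0.76 in log2, the isomerase IDI1 by -0.67, HMGCS1, the cytosolic synthase that forms hydroxymethylglutaryl-CoA, by -0.47, and the acetoacetyl-CoA thiolase ACAT2 by -0.29. After squalene, the methylsterol oxidase MSMO1 had 48.2, 50.2 and 52.4 CPM with GSK025 and 75.9, 71.2 and 76.4 CPM with DMSO, a change of -0.57 without overlap. The lanosterol synthase LSS changed by -0.39 and the squalene epoxidase SQLE by -0.25. INSIG2 changed by -0.34. All these passed, but ACAT2 no longer passed without DMSO replicate 1 (adjusted p = 0.057), without DMSO replicate 2 (adjusted p = 0.0527) or without GSK025 replicate 3 (adjusted p = 0.0638).

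Among the increases, ABCG1, which exports sterol to lipoproteins, had 10.2, 11.4 and 9.98 CPM with GSK025 and 5.05, 6.01 and 8.40 CPM with DMSO. The groups did not overlap, though DMSO replicate 3 lay close to the GSK025 libraries, and the log2 fold change was 0.70 (SE 0.20, adjusted p = 0.0113). Without DMSO replicate 1 it was 0.55 and did not pass (adjusted p = 0.0536). SCAP had 89.8, 82.5 and 73.2 CPM with GSK025 and 52.1, 54.2 and 50.3 CPM with DMSO. All 3 GSK025 libraries were above all DMSO libraries, with a log2 fold change of 0.65 (SE 0.067, adjusted p = 4.5e-06). NSDHL, a dehydrogenase that removes methyl groups from lanosterol derivatives, had 36.3, 39.1 and 33.5 CPM with GSK025 and 24.8, 25.4 and 23.4 CPM with DMSO. It was higher without overlap, by 0.56 in log2 (SE 0.080, adjusted p = 6.8e-05).

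Smaller increases with GSK025 were seen for the mevalonate kinase MVK (0.45), the phosphomevalonate kinase PMVK (0.32), the sterol isomerase EBP (0.29), the farnesyl diphosphate synthase FDPS (0.26), the squalene synthase FDFT1 (0.23) and SREBF2, which encodes SREBP2 (0.13), all log2 fold changes with adjusted p under 0.05. SREBF2 no longer passed in 4 of 6 fits without 1 GSK025 or DMSO library, with log2 fold changes of 0.10 to 0.13. With library totals it was 0.062 (adjusted p = 0.27). EBP was lost in 3 of these 6 fits. The 8 members that did not pass were CYP51A1, TM7SF2, HSD17B7, DHCR7, SREBF1, NPC1, MYLIP and ABCA1. For CYP51A1, the lanosterol demethylase, the confidence interval of the log2 fold change was -0.15 to 0.051, and for NPC1, which exports cholesterol from lysosomes, -0.12 to 0.11, while that of ABCA1 was -0.53 to 0.55 and leaves larger changes possible. In HCT116 log2 fold changes fell with exonic length across 11184 genes averaging at least 5 CPM, which are not independent replicates (Spearman's rho -0.301 with GSK025). With offsets for that trend PMVK (0.13, edgeR adjusted p = 0.233) and EBP (0.14, adjusted p = 0.192) did not pass. SREBF1 did (0.24, adjusted p = 0.00194), and NPC1 passed in the upward direction (0.24, adjusted p = 0.00183). MYLIP passed in the downward direction (-0.23, adjusted p = 0.0401).

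**Figure D1:**
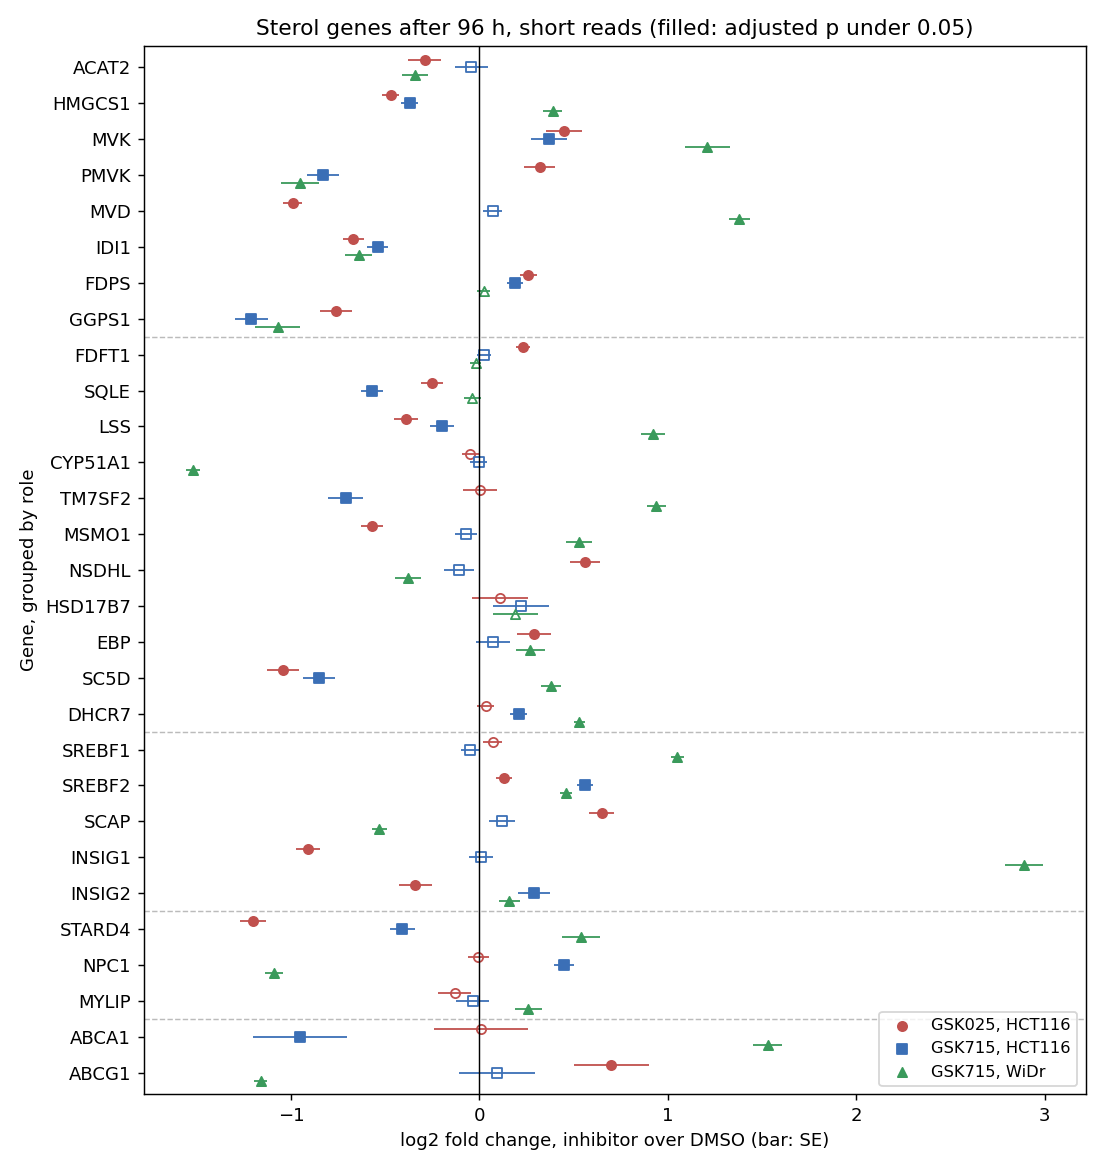
Log2 fold change of each gene, inhibitor over DMSO, for GSK025 in HCT116 (circles), GSK715 in HCT116 (squares) and GSK715 in WiDr short reads (triangles); bars are standard errors, filled symbols passed an adjusted p of 0.05 and dashed lines separate the roles. INSIG1 lies at 2.89 in WiDr, against 0.0082 with GSK715 and -0.91 with GSK025 in HCT116, and CYP51A1 at -1.52 in WiDr, with both HCT116 values near 0.

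With GSK715 in HCT116, the largest changes were decreases in a prenyl synthase, an exporter and a late desaturase rather than in the regulators. Of the 29 members 6 were higher, 10 lower and 13 did not pass, which is 55.2% called, beside 67.1% of all genes averaging at least 5 CPM. Over all genes tested 22.1% were called higher and 24.2% lower. The median log2 fold change was -0.036 over the members and -0.052 over all genes. The count of higher members depends on scaling: with library totals in place of TMM the median of all genes moved to -0.212 and only 2 members were called higher. The summed epithelial markers were 5720 to 6120 CPM with GSK715 and 4450 to 4550 CPM with DMSO. Those of the other cell types were 27.7 to 35.4 CPM with GSK715 and 26.7 to 31.8 CPM with DMSO. KRT8 (0.76), CDH1 (0.5) and KRT18 (0.3) were higher in log2, and KRT20 (-2.07) and KRT19 (-0.29) were lower. Of the other cell types COL1A1 was higher (0.47) and ACTA2 lower (-0.81). The part of these markers in the result was not tested.

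GGPS1 had 15, 14.5 and 14.9 CPM with GSK715 in HCT116, against 38.4, 30.9 and 33.2 CPM with DMSO. Every GSK715 library was below every DMSO library, and the log2 fold change was -1.21 (SE 0.087, adjusted p = 1.6e-07). ABCA1, which loads cholesterol onto apolipoproteins, had 2.25, 1.63 and 3.25 CPM with GSK715 and 5.68, 4.21 and 3.89 CPM with DMSO. Its groups did not overlap, but the levels are the lowest of the members per kilobase of exon in this line, and the log2 fold change of -0.95 had an SE of 0.25 (adjusted p = 0.00731). SC5D had 22.3, 27.3 and 25.5 CPM with GSK715 and 45.2, 48.3 and 41.8 CPM with DMSO. It was lower in all 3 libraries, by a log2 fold change of -0.85 (SE 0.085, adjusted p = 2.7e-06).

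PMVK had 11.7, 12.1 and 13.5 CPM with GSK715 and 27, 27.1 and 29 CPM with GSK025, against 21.7, 21.1 and 23.7 CPM with DMSO. The 3 groups are separate, with GSK715 below and GSK025 above DMSO, and PMVK fell by 0.83 on the log2 scale with GSK715 (adjusted p = 3e-06). TM7SF2, a reductase that acts after CYP51A1, had 15.5, 18.6 and 18.2 CPM with GSK715 and 31.8, 27.5 and 26.4 CPM with DMSO. It was lower without overlap, with a log2 fold change of -0.71 (adjusted p = 2.6e-05). SQLE changed by -0.57 and IDI1 by -0.54 in log2. STARD4 had 36.4, 37.3 and 36.5 CPM with GSK715 and 49.7, 45.9 and 51.1 CPM with DMSO (log2 fold change -0.41). HMGCS1 had 61.5, 60 and 59.6 CPM with GSK715 and 77.3, 80.6 and 75.7 CPM with DMSO (-0.37). LSS had 42.2, 41.7 and 44.7 CPM with GSK715 and 49.8, 52.4 and 45.5 CPM with DMSO (-0.20). All 3 genes were lower without overlap, and the gap was smallest for LSS. LSS is the least secure of these, since it did not pass with the offsets for exonic length (-0.072, adjusted p = 0.397) or in 4 of 6 fits without 1 of the libraries compared (-0.19 to -0.15). The length trend with GSK715 in HCT116 had a Spearman's rho of -0.293. With the offsets for it MSMO1 (-0.15) and NSDHL (-0.25) were called lower and SCAP (0.21) higher, none of which passed in the main fit.

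SREBF2 had 441, 399 and 407 CPM with GSK715 in HCT116 and 281, 289 and 278 CPM with DMSO. All GSK715 libraries were higher, and the log2 fold change was 0.56 (SE 0.044, adjusted p = 3.6e-07). NPC1 had 90.7, 95.5 and 85.8 CPM with GSK715 and 66.8, 68.6 and 64.2 CPM with DMSO. It too was higher without overlap, with a log2 fold change of 0.45 (SE 0.054, adjusted p = 1.6e-05). MVK had 18.0, 19.2 and 19.8 CPM with GSK715 and 13.0, 14.6 and 16.4 CPM with DMSO. The gap between its groups was narrow, at a log2 fold change of 0.37 (SE 0.097, adjusted p = 0.00632), and with library totals it did not pass (0.21, adjusted p = 0.0966). INSIG2 (0.29), the dehydrocholesterol reductase DHCR7 (0.21) and FDPS (0.19) also passed, and with library totals none of these 3 did (0.13, 0.049 and 0.03). FDFT1 did not pass at 0.026 and was called lower with library totals, at -0.13 (adjusted p = 0.00703).

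The inhibitors were compared directly in HCT116, at their different doses. GSK715 over GSK025, 10 members were higher, 9 lower and 10 did not pass, beside 21.8% of all genes called higher and 22.5% lower. The share among genes averaging at least 5 CPM, the nearer match for these well expressed members, is not given for this comparison. MVD (1.06), INSIG1 (0.92), STARD4 (0.78), INSIG2 (0.63) and MSMO1 (0.50) were among the members higher with GSK715 than with GSK025, all in log2 and with adjusted p under 0.05. PMVK (-1.15), ABCA1 (-0.96), TM7SF2 (-0.71), NSDHL (-0.68), ABCG1 (-0.61) and SCAP (-0.53) were among those lower. ABCG1 did not pass with no count filter (adjusted p = 0.0671) or without GSK025 replicate 1 or 2 or GSK715 replicate 1 or 3 (-0.62 to -0.50, adjusted p = 0.0513 to 0.0959). INSIG2 had 27.5, 29.5 and 29.9 CPM with GSK715 and 19, 16.8 and 20.2 CPM with GSK025, on opposite sides of the 23.5, 22 and 25.6 CPM with DMSO. INSIG2 and PMVK were the 2 members called in opposite directions with the 2 inhibitors, and the share of all genes so called is not given. IDI1 and SC5D were lower than DMSO with both, and the difference between the inhibitors did not pass for either, with intervals of 0.0041 to 0.25 for IDI1 and 0.00088 to 0.37 for SC5D.

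The summed level of the 19 synthesis enzymes was 928.0, 941.7 and 939.1 CPM with GSK025 and 944.2, 923.7 and 945.3 CPM with GSK715, against 1028.6, 1034.7 and 1016.6 CPM with DMSO. Every inhibitor library was below every DMSO library. The same held for CPM of the unscaled library total, at 940.2 to 943.0 with GSK025 and 874.5 to 901.7 with GSK715, against 1070.9 to 1093.5 with DMSO. Per kilobase of exon, SREBF2 had the highest level of the 29 members in all 3 HCT116 groups, at 40.9 with GSK025 and 55.0 with GSK715, against 37.4 CPM per kilobase with DMSO, and ABCA1 had the lowest.

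**Figure D2:**
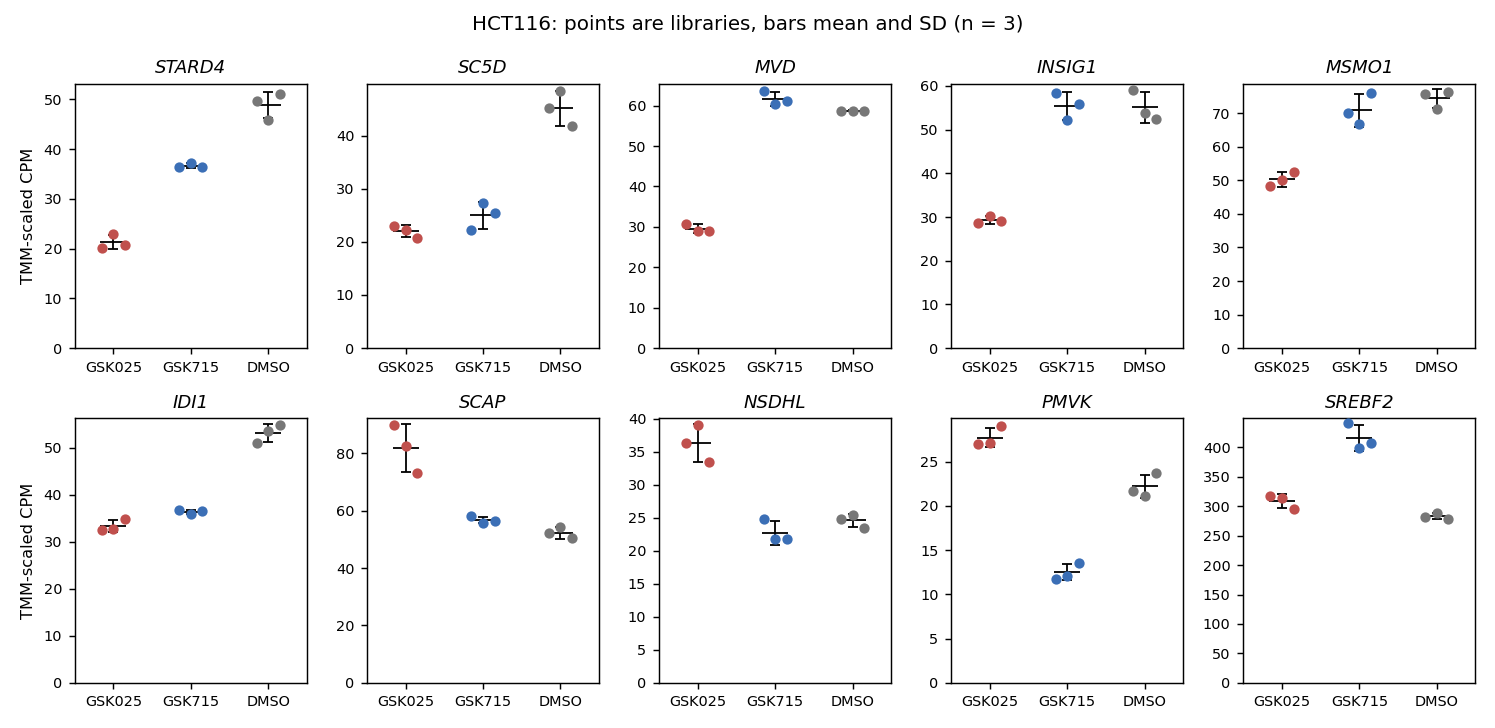
TMM-scaled CPM of 10 genes in each HCT116 library, with GSK025, GSK715 and DMSO from left to right; points are libraries and bars the mean and SD (n = 3), and each panel has its own scale from 0. MVD and INSIG1 are lower with GSK025 and lie near the DMSO level with GSK715, whereas SC5D and IDI1 are lower with both.

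With GSK715 in WiDr short reads, most of the called members moved upward: INSIG1 and ABCA1 rose most, MVD, MVK, SREBF1, TM7SF2 and LSS rose by log2 fold changes of 0.92 to 1.38, and CYP51A1, ABCG1 and NPC1 fell. Of the 29 members 16 were higher, 9 lower and 4 did not pass. Over all genes tested 33.6% were called higher and 32.2% lower, and of genes averaging at least 5 CPM 81% were called in either direction, beside 86.2% of the members, so here too the share called lies near that of other expressed genes. The median log2 fold change was 0.26 over the members and 0.054 over the 19340 genes tested. The marker sums moved as well. The epithelial sum was 22800 to 23300 CPM with GSK715 and 16200 to 16500 CPM with DMSO. The sum of the other cell types was 35.3 to 38.6 CPM with GSK715 and 19.3 to 22 CPM with DMSO. Single markers went both ways in log2. KRT8 (0.51), KRT18 (0.78), KRT19 (0.58), VIL1 (0.66), CDH1 (0.13), CDX1 (2.08) and CDX2 (1.6) were higher. KRT20 (-1.21), LGALS4 (-0.82) and EPCAM (-0.18) were lower. Of the other cell types CD14 (1.4) and COL1A1 (0.41) were higher and ACTA2 (-1.34) lower. The part of these markers in the result was not tested.

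INSIG1 had 68.6, 71.1 and 72.2 CPM with GSK715 in WiDr, against 11.3, 8.83 and 8.40 CPM with DMSO. The groups are widely separate, and the log2 fold change was 2.89 (SE 0.10, adjusted p = 4.1e-09), or 7.43-fold higher. ABCA1 had 28.5, 28.6 and 29.5 CPM with GSK715 and 10.6, 10.2 and 9.13 CPM with DMSO. It was higher in every library, by a log2 fold change of 1.53 (SE 0.076, adjusted p = 4.7e-08). MVD had 37.1, 38.3 and 38.3 CPM with GSK715 and 14.5, 14.7 and 14.6 CPM with DMSO. Replicates were nearly equal within both groups, and the log2 fold change was 1.38 (SE 0.056, adjusted p = 1.2e-08).

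MVK averaged 14 ± 0.657 CPM with GSK715 and 6.06 ± 0.745 CPM with DMSO (SD, n = 3 each), a log2 fold change of 1.21. SREBF1, which encodes SREBP1 and drives fatty acid synthesis more than sterol synthesis, averaged 375 ± 3.48 CPM with GSK715 and 181 ± 7.48 CPM with DMSO (SD, n = 3 each), a log2 fold change of 1.05. TM7SF2 had 56.5, 55.1 and 57.5 CPM with GSK715 and 30.2, 30.2 and 28.0 CPM with DMSO. It rose by 0.94 in log2 (edgeR adjusted p = 7.9e-08) without overlap. LSS had 47.8, 43.3 and 46.4 CPM with GSK715 and 23.3, 23.3 and 25.9 CPM with DMSO. It likewise rose in all 3 libraries, by 0.92 (adjusted p = 6.6e-07).

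Further increases in WiDr were smaller. STARD4 had 16.4, 15.6 and 18.1 CPM with GSK715 and 12.1, 10.2 and 12.2 CPM with DMSO, which do not overlap. HMGCS1 had 62.1, 58.7 and 65.7 CPM with GSK715 and 45.9, 47.3 and 49.3 CPM with DMSO. SC5D had 61.8, 58.2 and 64.7 CPM with GSK715 and 45.5, 47.0 and 49.5 CPM with DMSO. None of these 3 overlapped between groups, and their log2 fold changes were 0.54, 0.39 and 0.38. MSMO1 had 19.5, 20.3 and 18.9 CPM with GSK715 and 13.7, 13.4 and 13.7 CPM with DMSO, and rose by 0.53 in log2. INSIG2 had 35.8, 34.8 and 36.1 CPM with GSK715 and 31.7, 30.6 and 33.2 CPM with DMSO, a narrow gap without overlap. DHCR7 rose by 0.53, SREBF2 by 0.46, EBP by 0.27, MYLIP by 0.26 and INSIG2 by 0.16 in log2. INSIG2 no longer passed in 4 of 6 fits without 1 library (0.13 to 0.15), nor EBP without GSK715 replicate 2 (0.21, adjusted p = 0.0577).

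CYP51A1 had 41.8, 43.1 and 42.5 CPM with GSK715 in WiDr, against 121, 119 and 127 CPM with DMSO. It was the highest of the 29 members per kilobase of exon with DMSO and was rank 11 with GSK715, at a log2 fold change of -1.52 (SE 0.035, adjusted p = 2.9e-10). ABCG1 had 44.8, 45.4 and 46.2 CPM with GSK715 and 105, 101 and 99.4 CPM with DMSO. It was lower in every library, with a log2 fold change of -1.16 (SE 0.034, adjusted p = 1.4e-09), whereas ABCA1, its fellow LXR target and exporter, rose in the same libraries. NPC1 had 42.9, 39.1 and 38.4 CPM with GSK715 and 85.7, 88.2 and 83.0 CPM with DMSO. Its groups were far apart, at a log2 fold change of -1.09 (SE 0.048, adjusted p = 2.2e-08).

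GGPS1 (-1.07), PMVK (-0.95), IDI1 (-0.64), SCAP (-0.53), NSDHL (-0.38) and ACAT2 (-0.34) were the other members lower with GSK715 in WiDr. PMVK had 12.3, 12.3 and 11.2 CPM with GSK715 and 24, 25.8 and 19.6 CPM with DMSO. SCAP had 46.9, 50 and 46.4 CPM with GSK715 and 67.9, 68.2 and 70.4 CPM with DMSO. NSDHL had 33.8, 29.5 and 28.8 CPM with GSK715 and 39.4, 41.0 and 39.4 CPM with DMSO. None of these 3 overlapped between groups, and all 3 had been higher with GSK025 than with DMSO in HCT116. FDPS, FDFT1, SQLE and HSD17B7 did not pass. The intervals of the log2 fold change were -0.052 to 0.10 for FDPS, -0.087 to 0.048 for FDFT1 and -0.14 to 0.061 for SQLE. With library totals FDFT1 turned to 0.10 and FDPS to 0.15 and both passed, and the median of all genes was then 0.178. The 19 synthesis enzymes summed to 957.0, 937.5 and 965.8 CPM with GSK715 and 938.7, 943.5 and 952.3 CPM with DMSO, ranges that overlap, while as CPM of the unscaled total they were 976.4 to 1014.6 with GSK715 and 900.7 to 909.2 with DMSO, which do not.

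**Figure D3:**
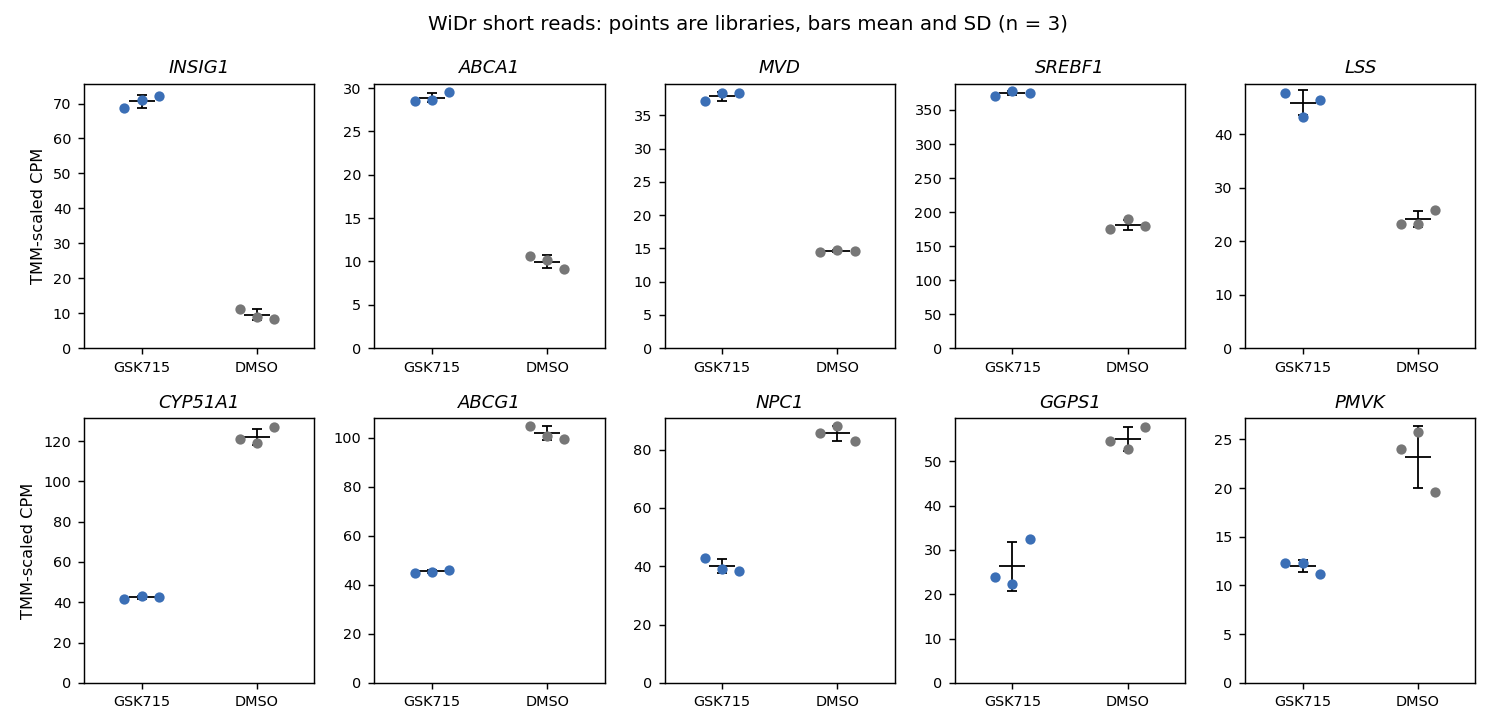
TMM-scaled CPM of 10 genes in each WiDr short-read library, GSK715 left and DMSO right; points are libraries and bars the mean and SD (n = 3), and each panel has its own scale from 0. The 5 genes of the upper row are higher and the 5 of the lower row lower with GSK715, with no overlap between the groups.

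Whether the response to GSK715 differed between the lines was tested as an interaction, WiDr minus HCT116. For 22 of the 29 members the difference passed, 13 with the more positive change in WiDr and 9 with the more negative. Of the 21791 genes tested 23.2% and 23.5% did so, and the share among genes averaging at least 5 CPM is not given. INSIG1 differed most, by 2.82 in log2 (SE 0.13, adjusted p = 9.4e-10), followed among the positive differences by ABCA1 (2.41), TM7SF2 (1.58), MVD (1.24), SC5D (1.16), LSS (1.05) and SREBF1 (1.02). NPC1 (-1.61), CYP51A1 (-1.59), ABCG1 (-1.33) and SCAP (-0.72) had the largest negative differences. HMGCS1, SC5D, TM7SF2, LSS, STARD4, ABCA1 and NPC1 were called in opposite directions in the lines, NPC1 lower in WiDr and higher in HCT116, ABCA1, SC5D, TM7SF2, LSS, STARD4 and HMGCS1 higher in WiDr and lower in HCT116. How often genes in general were called in opposite directions in the lines is not given. The difference did not pass for PMVK, IDI1, GGPS1, HSD17B7, EBP, INSIG2 and MYLIP, with an interval of -0.30 to 0.44 for GGPS1. Each line is also a table of its own, so line and table cannot be told apart. The differences of FDPS (-0.24), FDFT1 (-0.12), NSDHL (-0.34) and SREBF2 (-0.17) turn positive with library totals, at 0.12, 0.24, 0.017 and 0.18, under which the median of all genes is 0.467 in place of 0.123. These 4 differences and that of ACAT2 (-0.36) are the least secure of the 22. ACAT2 was -0.0096 with library totals (adjusted p = 1.0) and -0.22 with the offsets for exonic length (adjusted p = 0.122), and it no longer passed without HCT116 DMSO replicate 3, HCT116 GSK715 replicate 3, WiDr DMSO replicate 1 or WiDr GSK715 replicate 3 (-0.30 to -0.26). With the offsets for exonic length FDPS (-0.089), FDFT1 (-0.0017), NSDHL (-0.15) and SREBF2 (-0.15) did not pass either. FDFT1 also did not pass with DESeq2 or RLE size factors (both -0.071), without mitochondrially encoded genes (-0.078), with the replicate block (adjusted p = 0.06) or in any of the 12 fits without 1 library (-0.099 to -0.065). SREBF2 did not pass with DESeq2, with RLE size factors or without mitochondrially encoded genes (-0.13 in each), and of the 12 fits without 1 library it passed only without HCT116 DMSO replicate 2, HCT116 GSK715 replicate 2 or WiDr DMSO replicate 3. Of the same 12 fits NSDHL passed only without HCT116 DMSO replicate 2, HCT116 GSK715 replicate 2 or 3, WiDr DMSO replicate 3 or WiDr GSK715 replicate 1.

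Across the 3 short-read comparisons with DMSO, MVK and SREBF2 were called higher in each and IDI1 and GGPS1 lower in each. The share of all genes called the same way in all 3 is not given. The HCT116 comparisons share their DMSO libraries. With library totals SREBF2 with GSK025 (0.062) and MVK with GSK715 in HCT116 (0.21) did not pass. SREBF2 with GSK025 also did not pass in several fits without 1 library. HSD17B7, a reductase of the demethylation steps, passed in none of the 3 comparisons. Levels of HSD17B7 were low, at 13.1 ± 1.97 CPM with GSK025 and 14.2 ± 1.04 CPM with GSK715, against 12.1 ± 2.23 CPM with DMSO in HCT116 (SD, n = 3 each), and its reads and those of FDPS can be shared with near-identical pseudogenes. Strand is not given in the sources used here, so genes whose exons overlap another gene are less certain. The overlap covers 83.2% of the exonic bases of CYP51A1 (chr7:92112151-92134803, minus strand, GENCODE 29 on GRCh38), including models on its own strand. It covers 52.3% of ACAT2 (chr6:159760328-159779055, plus strand), shared with TCP1 and SOD2 on the other strand, and 41.0% of GGPS1 (chr1:235327350-235344532, plus strand), shared with TBCE and ARID4B. For FDPS it is 18.6%, for HMGCS1 15% and for IDI1 14.8%, each with an antisense RNA gene. INSIG1 (chr7:155297776-155310235, plus strand), MVD (chr16:88651935-88663161, minus strand), SC5D (chr11:121292453-121308694, plus strand) and ABCA1 (chr9:104781002-104928237, minus strand) have no exonic overlap. STARD4 (chr5:111496033-111512590, minus strand) overlaps an antisense gene over 2.2% and NPC1 (chr18:23506184-23586898, minus strand) overlaps RMC1 over 6.0% of exonic bases.

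ONT reads of WiDr did not give the short-read picture of GSK715. Of 27 members tested, SREBF1 was higher and ACAT2 and IDI1 lower, and 24 did not pass, beside 4.29% of 15877 genes called higher and 4.51% lower. SREBF1 had 79.5 and 79.0 CPM with GSK715, against 53.5 and 59.0 CPM with DMSO. Both GSK715 libraries were higher, at a log2 fold change of 0.50 (SE 0.15, adjusted p = 0.0292). ACAT2 had 26.9 and 33.3 CPM with GSK715 and 45.5 and 55.5 CPM with DMSO. It was lower in both, at a log2 fold change of -0.74 (SE 0.20, adjusted p = 0.0127). IDI1 had 41.1 and 43.6 CPM with GSK715 and 67.7 and 64.5 CPM with DMSO, a log2 fold change of -0.64 (SE 0.17, adjusted p = 0.00941), close to the -0.64 of the short reads. None of these 3 passed with DESeq2 (adjusted p = 0.651 for SREBF1, 0.485 for ACAT2 and 0.466 for IDI1), and without 1 of the 4 libraries SREBF1 passed in 0 fits, IDI1 in 1 and ACAT2 in 2.

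For INSIG1 the ONT libraries had 42.4 and 45.6 CPM with GSK715 and 34.5 and 28.8 CPM with DMSO, again higher with GSK715, but with a log2 fold change of only 0.47 (adjusted p = 0.149). MVD had 52.5 and 41.5 CPM with GSK715 and 48.0 and 56.2 CPM with DMSO, which overlap. NPC1 had 39.1 and 38.8 CPM with GSK715 and 32.6 and 35.0 CPM with DMSO, the reverse of the order in short reads, with a log2 fold change that did not pass (0.21, adjusted p = 0.626). CYP51A1 had 57.2 and 56.5 CPM with GSK715 and 63.4 and 76.1 CPM with DMSO (-0.29, adjusted p = 0.294), and ABCG1 29.6 and 28.6 CPM with GSK715 and 36.9 and 42.5 CPM with DMSO (-0.44, adjusted p = 0.204). Both are lower with GSK715 in the ONT libraries, as in the short reads, by less. LSS, at 3 to 12 counts, and ABCA1, at 1 to 2 counts in a library, were too sparse to test in the ONT fit alone. Summed, 18 enzymes had 987.3 and 936.5 CPM with GSK715 and 1103.1 and 1127.4 CPM with DMSO.

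The difference between read types was tested as an interaction, ONT minus short reads. It passed for 12 members, 3 with the more positive change in ONT and 9 with the more negative, beside 11.2% and 8.69% of 24055 genes. Here too the share among genes averaging at least 5 CPM is not given. The 9 were INSIG1 (-2.37, adjusted p = 1.4e-05), LSS (-2.05), MVD (-1.47), MVK (-1.10), TM7SF2 (-1.08), MSMO1 (-0.72), DHCR7 (-0.65), SREBF2 (-0.53) and SREBF1 (-0.50), and the 3 were NPC1 (1.35), CYP51A1 (1.28) and ABCG1 (0.77). LSS and ABCA1, too sparse for the ONT fit alone, entered this fit through their short-read counts. LSS had 27 ONT counts in total and ABCA1 had 6. For 17 members, ABCA1 among them, no difference passed, which does not show that the read types agree. In simulated counts over genes of all levels, this test recovered 18% of 2-fold increases and 20% of 2-fold decreases. It recovered 6% of 1.5-fold increases. MVK, DHCR7, SREBF1 and SREBF2 did not pass without ONT DMSO replicate 2, nor MVK without ONT GSK715 replicate 2, SREBF2 without ONT GSK715 replicate 1, or LSS without ONT DMSO replicate 1 or ONT GSK715 replicate 1, while INSIG1, MVD, TM7SF2, MSMO1, NPC1, CYP51A1 and ABCG1 passed in every fit without 1 library. The read types also differ in depth and are separate tables, which cannot be told apart here. In ONT the summed epithelial markers were 19700 to 21300 CPM with GSK715 and 15800 to 15900 CPM with DMSO. Those of the other cell types were 19.7 to 21.6 CPM with GSK715 and 19.9 to 22.8 CPM with DMSO. KRT8 (0.45) and KRT18 (0.67) were higher in log2 and KRT20 (-0.48) lower, and the other markers tested did not pass. The part of these markers in the result was not tested. The labels do not say whether short-read and ONT libraries came from the same cultures.

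**Figure D4:**
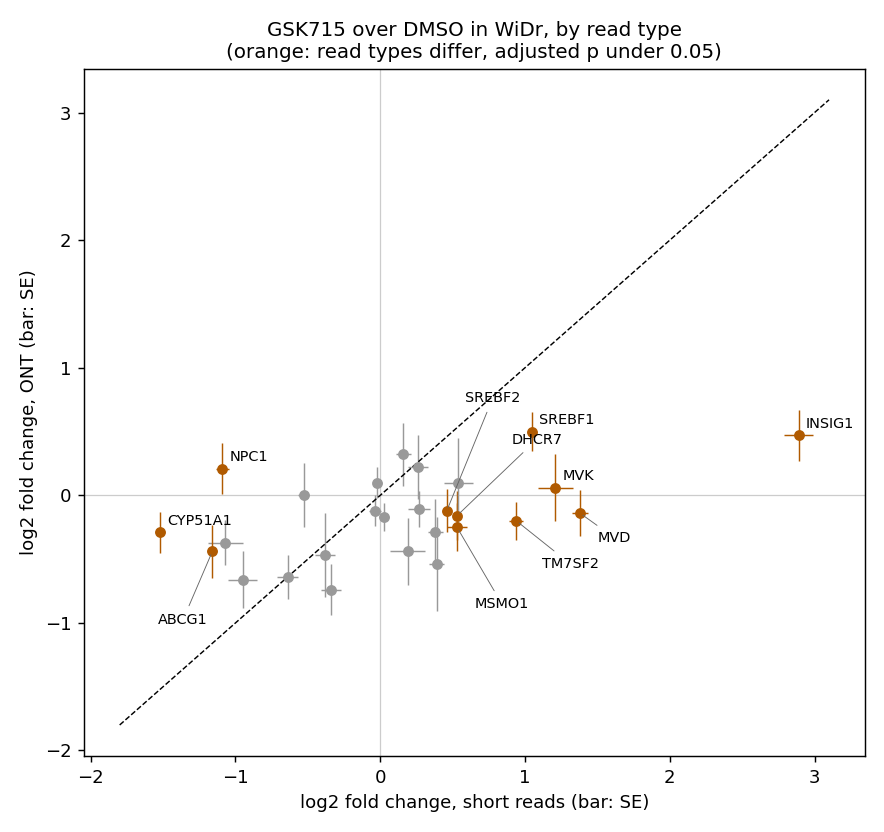
Log2 fold change of GSK715 over DMSO in WiDr for the 27 genes tested by both methods, short reads on the horizontal and ONT on the vertical axis, with standard errors; the dashed line marks equal values and the named orange points differ between read types. INSIG1 lies at 2.89 in short reads and 0.47 in ONT, and NPC1 at -1.09 in short reads and 0.21 in ONT.

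Other sterol genes that are not among the 29, such as lysosomal, storage and LXR genes, were counted as a list of 20. With GSK025 in HCT116 11 were higher and 3 lower, with GSK715 in HCT116 11 higher and 6 lower, and with GSK715 in WiDr 11 higher and 4 lower of 19 tested, with medians of 0.15, 0.21 and 0.68 in log2 against -0.018, -0.052 and 0.054 over all genes. Called in either direction were thus 14 of 20, 17 of 20 and 15 of 19, beside 66.9%, 67.1% and 81% of genes averaging at least 5 CPM in the same comparisons. In ONT edgeR called 0 of 17, and 2 of the 17, LBR (-0.38) and NPC2 (0.23), had an unadjusted p under 0.05. NPC2, the soluble partner of NPC1 in lysosomes, was higher in all 3 short-read comparisons, by 0.56 with GSK025 and 0.77 with GSK715 in HCT116 and by 1.65 with GSK715 in WiDr, where NPC1 fell. In WiDr it had 67.4, 70.6 and 64.4 CPM with GSK715 and 19.9, 23.6 and 21.2 CPM with DMSO. RXRA, the partner of the LXR receptors, was higher in the same 3 comparisons (0.47, 0.45 and 0.65). LIPA, the lysosomal cholesteryl ester hydrolase, was higher with GSK715 in WiDr (0.75) and lower with GSK715 in HCT116 (-0.52). LBR, a sterol reductase of the nuclear envelope, was lower in all 3, at -0.27 with GSK025 and -0.25 with GSK715 in HCT116 and -0.66 with GSK715 in WiDr.

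Of 13 genes of SREBP processing and sterol-regulated degradation, 4 were higher and 5 lower with GSK025 in HCT116, 7 higher and 3 lower with GSK715 in HCT116, 3 higher and 7 lower with GSK715 in WiDr, and 1 higher with none lower in ONT. Called in either direction were thus 9, 10 and 10 of 13 in the short-read comparisons, beside 66.9%, 67.1% and 81% of genes averaging at least 5 CPM, and in ONT 4.29% of all genes were called higher and 4.51% lower. UBE2G2, a ubiquitin-conjugating enzyme of endoplasmic reticulum degradation, had 55.6, 56.5 and 54.1 CPM with GSK025 in HCT116 and 115, 117 and 109 CPM with DMSO, a log2 fold change of -1.04 (adjusted p = 4.3e-09), and it was higher with GSK715 (0.42, adjusted p = 3.3e-06). PAQR3, which tethers SCAP to the Golgi, was lower with both inhibitors in HCT116 (-0.93 with GSK025 and -0.72 with GSK715). SPRING1, a cofactor of the first SREBP protease, was higher with GSK715 in WiDr in short reads (0.58, adjusted p = 7.9e-07) and in ONT (0.46, adjusted p = 0.0215). ERLIN1, a sterol-binding protein of the same degradation pathway, was lower in WiDr short reads (-0.62) and did not pass in ONT (-0.026, adjusted p = 0.955).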

How the data were processed

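Gene counts of 9 HCT116 and 6 WiDr short-read libraries and 4 WiDr ONT libraries were used. The authors deposited raw counts per gene for the short reads and estimated counts, not all whole, for ONT, which were rounded here. Per the submitters' processing notes the tools were cutadapt, HISAT2, StringTie, minimap2, Salmon and DESeq2 with GRCh38, with no versions or roles; strandedness is not given in the sources used here. Columns named NC in the WiDr tables were taken as DMSO by elimination. Of the ONT IDs 3991 are not Ensembl genes.

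Each table was fitted over all genes with edgeR 4.0.16 (quasi-likelihood test, limma 3.58.1, R 4.3.3) after a filter on low counts (minimum count 10, minimum total 15) and TMM scaling, with Benjamini-Hochberg adjustment over all genes tested and a threshold of 0.05. The 3 HCT116 groups shared 1 fit, so both HCT116 comparisons use the same DMSO libraries. Differences between lines and between read types were interaction terms over the joined tables. The fits were tested on simulated data. Total counts were 64.6 to 66.9 M in HCT116, 59.6 to 82.4 M in WiDr short reads and 1.45 to 1.67 M in ONT. Errors were wider in ONT, which also had fewer libraries per group and rounded estimated counts. Alternatives were DESeq2 1.42.0, RLE size factors, library totals, no count filter, no mitochondrially encoded genes, offsets for exonic length, a replicate block, fits of the compared groups alone and leaving out each library.

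The members, gene lists and tests were chosen with earlier results of these data known. Per-library values are given for the 3 members with the largest called change in each direction of a comparison and for those called in opposite directions; of the other pathway lists, the named genes are mainly those with the smallest adjusted p per direction, and a few were added after their values were seen. Gene positions and exonic lengths are those of GENCODE 29 and promoter windows those of RefSeq.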

Additional observations from a re-analysis of the deposited data

Results flagged for a closer look

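The response to GSK715 differed between WiDr and HCT116 by the interaction test (edgeR, adjusted p under 0.05) for 22 members. Of the 21791 genes tested 23.2% had a positive difference that passed and 23.5% a negative one. The share among genes averaging at least 5 CPM is not given for this difference. The log2 difference, WiDr minus HCT116, was positive for INSIG1 (2.82), ABCA1 (2.41), TM7SF2 (1.58), MVD (1.24), SC5D (1.16), LSS (1.05), SREBF1 (1.02), STARD4 (0.88), MVK (0.77), HMGCS1 (0.68), MSMO1 (0.53), SQLE (0.46) and DHCR7 (0.25). It was negative for NPC1 (-1.61), CYP51A1 (-1.59), ABCG1 (-1.33), SCAP (-0.72), ACAT2 (-0.36), NSDHL (-0.34), FDPS (-0.24), SREBF2 (-0.17) and FDFT1 (-0.12). Line and table cannot be told apart. The differences of ACAT2, NSDHL, FDPS, SREBF2 and FDFT1 no longer passed, or turned positive, under several alternatives.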

How the results depend on the processing

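Under the alternatives, 215 counts of called members stayed within 1.5 times the main value and 21 did not. With library totals the higher members with GSK715 in HCT116 were 2, the higher members in ONT 0, the lower WiDr minus HCT116 differences 4 and the lower ONT minus short-read differences 14. With offsets for exonic length, with or without the replicate block, the lower WiDr minus HCT116 differences were also 4. In ONT, DESeq2 and the fit with no count filter called 0 members higher and 0 lower. Over all genes in ONT edgeR called 681 higher and 716 lower, DESeq2 152 and 125, and the fit with no count filter 141 and 110.

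Without 1 library, the counts of higher and lower members were 7 to 9 and 11 to 12 with GSK025, 5 to 6 and 9 to 10 with GSK715 in HCT116, 8 to 10 and 8 to 10 for GSK715 over GSK025, 15 to 16 and 9 to 9 with GSK715 in WiDr, 0 to 0 and 0 to 3 in ONT, 13 to 14 and 5 to 8 for WiDr minus HCT116, and 3 to 4 and 5 to 11 for ONT minus short reads. A fit that left 1 library in an ONT arm assumes that it varies like the others.

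Of the members' values, 3216 kept direction and side of the threshold, 130 lost a call, 44 gained one and 8 reversed. NPC1 with GSK025 became 0.24 with the offsets for exonic length, with and without the replicate block. With library totals FDFT1 became -0.13 with GSK715 in HCT116, 0.10 with GSK715 in WiDr and 0.24 for WiDr minus HCT116, where FDPS became 0.12, NSDHL 0.017 and SREBF2 0.18; the cause was not tested. Library totals also changed the split of all genes called higher and lower, to 2994 and 6343 with GSK715 in HCT116 (4372 and 4785 with TMM), 7495 and 5300 in WiDr (6502 and 6225) and 7321 and 3203 for WiDr minus HCT116 (5058 and 5129).

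Deviations of same-numbered libraries from their group means correlated at -0.034 to 0.034 over the genes tested. Such small values cannot show whether the numbers pair the samples. In WiDr short reads same-numbered libraries had 0.029, 0.029 and 0.034, and different-numbered ones -0.048 to 0.017. With 2 ONT libraries per group the ONT values mirror each other by construction. With the replicate block the counts of called members equalled those without it except 9 higher for GSK715 over GSK025, 3 lower in ONT, 8 lower for WiDr minus HCT116 and 4 higher for ONT minus short reads. The ONT libraries differ from the short reads in depth, number and read type, and what each adds to the few ONT calls was not tested.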

Other observations

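Of 14 genes that use or modify isoprenoids, 5 were higher and 4 lower with GSK025 in HCT116. With GSK715, 3 were higher and 7 lower in HCT116, and 3 higher and 6 lower in WiDr short reads. In ONT 0 were higher and 2 lower. Called in either direction were thus 9, 10 and 9 of 14 in the short-read comparisons, beside 66.9%, 67.1% and 81% of genes averaging at least 5 CPM, and in ONT 4.29% of all genes were called higher and 4.51% lower. FNTB, the beta subunit of protein farnesyltransferase, was higher in all 3 short-read comparisons, with log2 fold changes of 0.37 with GSK025 and 0.33 with GSK715 in HCT116 and 0.55 with GSK715 in WiDr. COQ2, a prenyltransferase of ubiquinone synthesis, was lower with GSK715 in both lines, at -1.12 in WiDr (adjusted p = 3.7e-06) and -0.62 in HCT116. RABGGTB, the beta subunit of the prenyltransferase of Rab proteins, was lower with GSK025 (-0.72, adjusted p = 4.5e-07).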
